A study of Sus scrofa with 4 samples.

Results

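Intermediate filaments and nuclear lamins were described in porcine 4-cell embryos as a set of 9 genes of the 35248 rows in the deposited expression table. The genes were taken by name: the neuronal filament genes NEFM, NEFL and INA, vimentin (VIM), the simple-epithelial keratins KRT8 and KRT18, and the lamin genes LMNA, LMNB1 and LMNB2. The list held 10 names, and no row of the table carried the remaining one, KRT19, which was not analysed here. The set was chosen by the counts of NEFM, which stood higher with Bobcat339, so the difference in NEFM between the groups is given as a description and is not a finding. The 4 libraries were made from parthenogenetic embryos, in which the oocyte is activated by an electric pulse and develops without a sperm genome. After activation all oocytes were held for 3 h in cytochalasin B at 7.5 µg/mL, an actin drug that keeps the second polar body in, and then cultured for 48 h in PZM-3 with bovine serum albumin. In 2 libraries the embryos received 50 µM Bobcat339, a cytosine derivative sold as an inhibitor of the TET enzymes that oxidise methylated cytosine. The other 2 received DMSO, the solvent, whose dose the labels give in the unit of the inhibitor. How many embryos went into a library is not stated in those labels. Nor do they say that replicates were separate cultures, so the p-values reflect the spread among these libraries alone, which may be technical.

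Intermediate filaments are rope-like polymers of coiled-coil proteins, and cells choose which subunits to build them from. Keratins assemble as obligate pairs of a type I chain such as KRT18 with a type II chain such as KRT8, and these chains are hallmarks of the first epithelium of the embryo, the trophectoderm. Vimentin, a type III protein, polymerises with itself and is typical of mesenchymal cells. NEFL, NEFM and INA are type IV subunits that co-assemble in the axons of neurons. Lamins are the nuclear members of the family and line the inside of the nuclear envelope. The B-type lamins keep a farnesyl lipid anchor, whereas LMNA encodes lamins A and C, of which lamin A loses its lipid during maturation.

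The libraries held 13568525 to 14681221 counts. The CPM given for genes are counts scaled to a common library size after TMM, a correction for differences in composition. Before TMM, the level that 3 counts correspond to was 0.204 to 0.221 CPM. Such floors and counts cover counting error only, as the reads carry no molecular identifiers. Transcripts of the oocyte and cleavage embryo were abundant, as the labels imply: all 12 matched markers were detected, and together they reached 15352 to 18624 CPM per library, with BMP15, an oocyte growth factor, at 4279 CPM, WEE2, an oocyte kinase, at 4160 CPM and DNMT1, the maintenance DNA methyltransferase, at 3164 CPM. Between the groups 0 of these 12 passed the edgeR test, and the smallest p was that of PADI6, a protein of oocyte cytoplasmic lattices (log2 fold change −0.50, SE 0.23). Among all tested genes the 2 control libraries differed by a median of 0.46 on the log2 scale and the 2 Bobcat339 libraries by 0.25, so the controls were the less alike pair.

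Lamin B1 was the most abundant transcript of the set. Levels of different genes were compared per length, with the FPKM (fragments scaled to gene length and library size) that the authors deposited. LMNB1 stood at 11.2 ± 2.48 FPKM (SD over the 4 libraries) and was above VIM, at 6.08 ± 1.84 FPKM, in every library without overlap of their ranges. Below it came INA at 4.43 ± 3.25, LMNB2 at 3.81 ± 1.42, LMNA at 3.12 ± 0.634 and NEFM at 2.33 ± 2.04 FPKM, and the ranges of each neighbouring pair from VIM down to NEFL overlapped. KRT18 followed at 1.30 ± 0.63 and NEFL, lower than KRT18 in each of the 4 libraries, at 0.557 ± 0.305 FPKM. KRT8 was last at 0.122 ± 0.107 FPKM, with its highest library below the lowest of NEFL. These means pool both groups, and NEFM was picked for standing higher with Bobcat339. In the controls alone NEFM had a mean of 0.906 FPKM, below KRT18 at 1.48. INA was at 2.87 there, below LMNB2 at 3.58 and LMNA at 3.25 FPKM. The order of the middle genes is therefore not settled by these libraries. It also depends on the gene length used, since a length column in the same table gave LMNA a mean of 0.762 and LMNB1 5.79 FPKM, with LMNB1 and VIM then overlapping.

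Summed by class, lamins made up 60.5% to 62.1% of the FPKM of the 9 genes in both controls and in Bobcat339 library 1, and 41.2% in Bobcat339 library 2. The neuronal type IV genes of the set, NEFM, NEFL and INA, showed the opposite. They held 14.8% and 14.7% in the controls, 18.2% in Bobcat339 library 1 and 36.2% in Bobcat339 library 2. The summed lamin FPKM itself was 16.8 in Bobcat339 library 2, within the 15.9 to 21.4 of the other libraries, while the summed type IV FPKM was 14.8 there against 3.82 to 5.44 elsewhere. With the table's length column the lamin share was 44.6% to 45.6% in those 3 libraries and 24.5% in Bobcat339 library 2, where type IV genes held 50.1% against 21.3% to 28.1% elsewhere. By deposited FPKM, keratins contributed 1.90% to 6.21% and vimentin 14.1% to 20.6%. In Bobcat339 library 2 the type IV sum came from INA, at 9.26 FPKM, and NEFM, at 5.24 FPKM, whereas NEFL was at its lowest there, 0.301 FPKM. VIM was also at its highest in that library, 8.43 FPKM, and the keratin sum at its lowest, 0.775 FPKM. The type IV sum contains NEFM, so its order between the groups is in part how the set was chosen. It leaves out NEFH, the heavy neurofilament subunit, which is not in the set and had a mean of 6.65 FPKM. NEFH was highest in control library 1, so the sum does not describe all type IV genes.

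**Figure D1:**
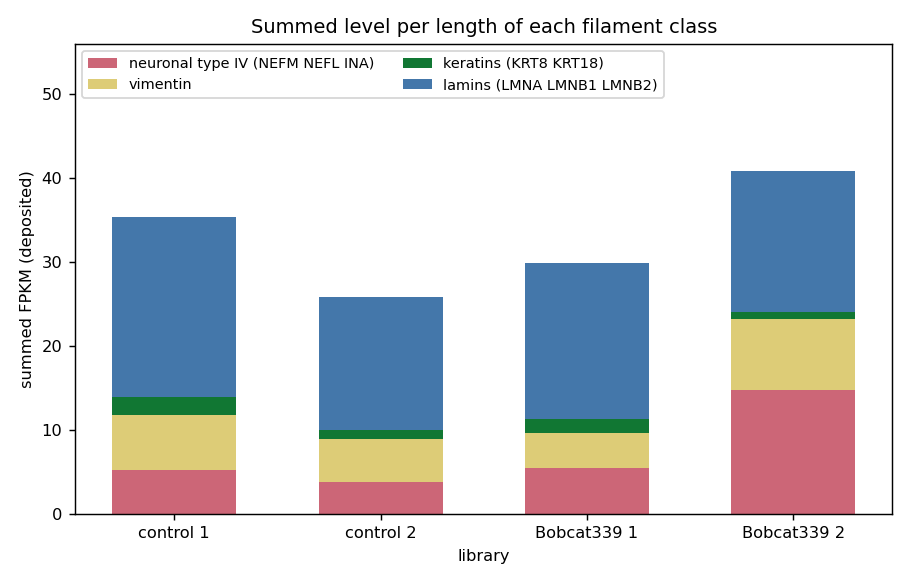
Summed deposited FPKM (y axis) of neuronal type IV genes, vimentin, keratins and lamins in each of the 4 libraries (x axis), stacked from 0. The type IV layer reaches 14.8 FPKM in Bobcat339 library 2 and 3.82 to 5.44 FPKM in the other 3 libraries, while the lamin layer lies between 15.9 and 21.4 FPKM in control and 16.8 and 18.6 FPKM in Bobcat339 libraries. NEFM, by which the set was chosen, is part of the type IV layer, and NEFH, which is outside the set, is not.

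The question put by the design is which transcripts differ between Bobcat339 and solvent-treated embryos. In edgeR's quasi-likelihood test across 18481 genes, 0 of the 9 genes fell under an adjusted p (Benjamini-Hochberg) of 0.05, and 0% of all genes did. All 9 had enough counts to be tested. DESeq2 and limma-voom also called 0 of the 9, DESeq2 calling 0.0167% of all rows with a count and limma-voom 0%. At an unadjusted p under 0.05 the edgeR test held 2 of the 9, NEFM and INA, beside 4.00% of all genes, a count that the choice of NEFM helped to make. Both Bobcat339 libraries lay above both controls for 1 of the 9 (NEFM) and below them for 0, where 13.3% and 16.0% of all genes did so, and the groups overlapped for the other 8. With control library 1 left out, edgeR called 2 of the 9 (NEFM and INA) and 2.92% of all genes. With control library 2 left out it called 1 of the 9 (NEFM) and 2.47%. With either Bobcat339 library left out it called 0 of the 9. The log2 fold change was above 0 for 4 genes and below 0 for 5, with a median of −0.05 beside −0.02 over all genes tested.

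NEFM, the medium neurofilament subunit whose long tail spaces filaments apart in axons, lies on chromosome 14 at 8961852 to 8967912, plus strand (ENSSSCG00000009648; coordinates as in the table, which follow Sscrofa11.1). It had 51 and 54 counts in control libraries 1 and 2 and 137 and 292 counts in Bobcat339 libraries 1 and 2. As CPM these were 3.65 and 3.87 in the controls and 9.33 and 21.3 with Bobcat339. The controls were nearly equal, with a ratio of 1.06 between them, while the Bobcat339 libraries differed from each other by 2.28 times and the lower of them was 2.41 times the higher control. Group means were 15.3 ± 8.44 CPM with Bobcat339 and 3.76 ± 0.15 CPM in the control (SD, n = 2 each). The fitted log2 fold change was 2.02 (SE 0.43, 95% interval 1.12 to 2.92), or 4.06 times. After adjustment over all genes p was 0.343 by edgeR and 0.0778 by DESeq2. Its unadjusted p by edgeR ranked 8 among the 18481 genes. NEFM was picked because it stood higher with Bobcat339, so neither this rank nor the interval is a finding. Without Bobcat339 library 2 the log2 fold change was 1.36.

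INA, alpha-internexin, is the type IV subunit that appears early in developing neurons. It lies on the same chromosome, far from NEFM, at 114227993 to 114240558, plus strand (ENSSSCG00000010595). Its levels were 11.4 and 7.87 CPM in the controls and 8.92 and 30.2 CPM with Bobcat339. Bobcat339 library 2 alone was high, and Bobcat339 library 1 lay between the controls. A log2 fold change of 1.02 (95% interval 0.06 to 1.98, SE 0.46; adjusted p = 0.999 by edgeR) rested on that 1 library, for it was −0.06 without Bobcat339 library 2 and 1.64 without library 1. Without control library 1 it was 1.31 and passed (edgeR adjusted p = 0.0125, where 2.92% of all genes were called).

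NEFL, the light subunit on which neurofilament assembly depends, is the neighbour of NEFM. It lies at 8990750 to 8997300 on the minus strand of chromosome 14 (ENSSSCG00000009649), with 22837 bases between the 2 genes. NEFL was at 5.30 and 2.36 CPM in the controls and 2.38 and 1.53 CPM with Bobcat339, from 74, 33, 35 and 21 counts in that order. Control 1 was the high library, and control 2 was just below Bobcat339 library 1. NEFL had a log2 fold change of −0.96 (95% interval −2.06 to 0.13, SE 0.52; adjusted p = 0.999 by edgeR). It was −0.27 without control library 1 and −1.40 without control library 2, so 1 control library set most of its size.

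Within a library, NEFM and NEFL therefore stood in different proportions. The ratio of NEFM to NEFL FPKM was 0.862 and 2.05 in the controls and 4.90 and 17.4 with Bobcat339. With the table's length column these ratios were 2.35 and 5.58 against 13.3 and 47.4, so which of both genes leads in control library 1 depends on the length used. Of the summed FPKM of the 3 type IV genes of the set, NEFL took 19.2% and 12.1% in the controls and 8.53% and 2.04% with Bobcat339. INA took the largest part in all 4 libraries, 64.2% and 63.0% in the controls and 49.7% and 62.6% with Bobcat339. These ratios contain NEFM, so their order between the groups is part of how the set was chosen.

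**Figure D2:**
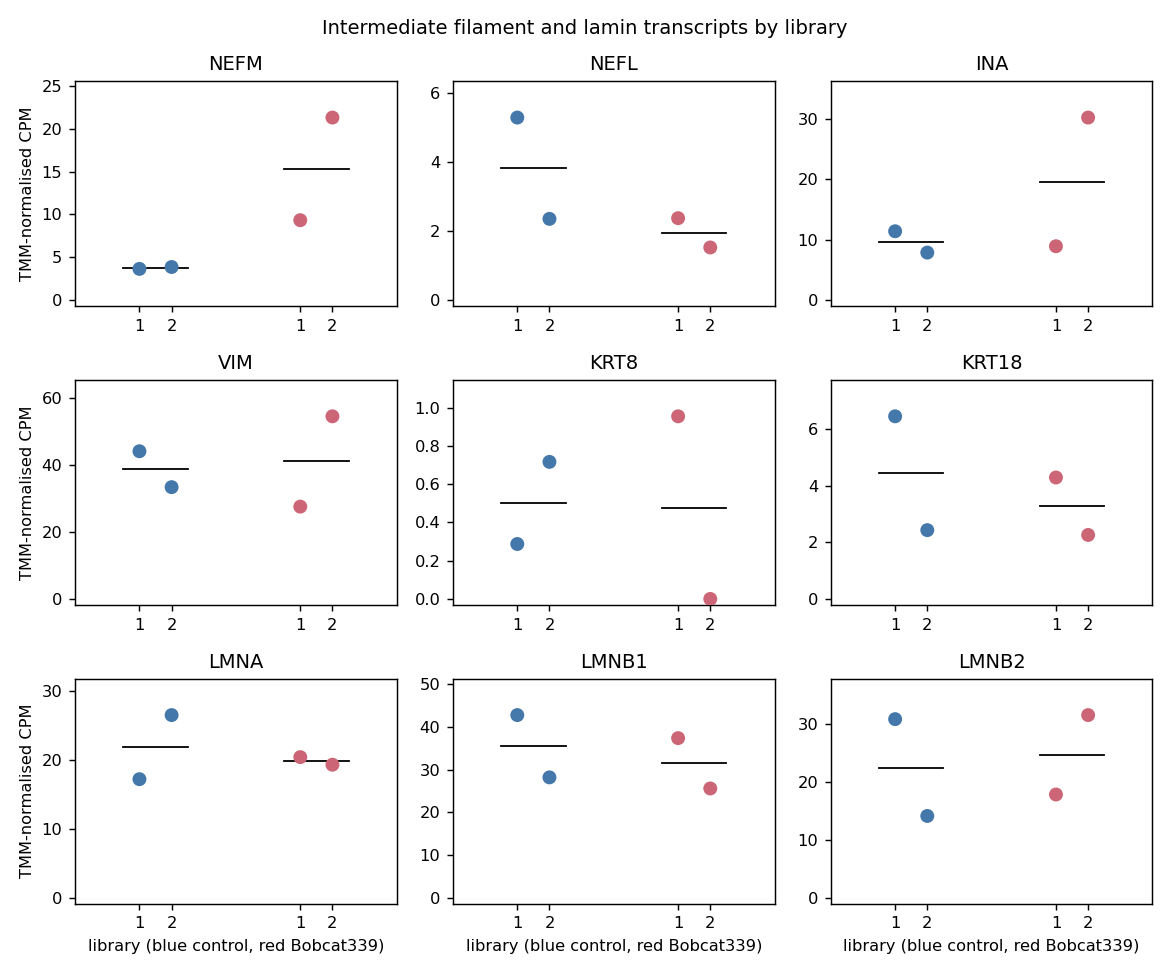
TMM-normalised CPM (y axis, from 0, with its own scale in each panel) of the 9 genes in control libraries 1 and 2 (blue) and Bobcat339 libraries 1 and 2 (red), with a black line at each group mean. NEFM is the 1 panel in which both red points (9.33 and 21.3 CPM) lie above both blue points (3.65 and 3.87 CPM), and INA is high in Bobcat339 library 2 alone, at 30.2 CPM.

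VIM encodes vimentin, which in an early embryo sample can also come from cumulus cells or other mesenchymal-type cells carried along. The gene lies on chromosome 10 at 43517283 to 43530623, plus strand (ENSSSCG00000011033). It was at 44.0 and 33.3 CPM in the controls and 27.5 and 54.4 CPM with Bobcat339, so the 2 Bobcat339 libraries were the lowest and the highest of the 4. Between the groups the log2 fold change was 0.08 (95% interval −0.66 to 0.82, SE 0.35; adjusted p = 0.999 by edgeR), which leaves room for a change of either sign. It was −0.44 without Bobcat339 library 2 and 0.49 without Bobcat339 library 1.

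Markers of fibroblast and stromal cells were at 86.6 and 86.1 CPM in sum in the controls and 75.0 and 110 CPM in Bobcat339 libraries 1 and 2, over 10 genes. The largest part of this sum was THY1, a surface glycoprotein shared with neurons, so its order over the libraries does not describe the list as a whole. THY1 was at 54.0 and 40.4 CPM in the controls and 44.5 and 71.5 CPM with Bobcat339. The collagen gene COL1A1 was at 5.88 and 8.95 against 5.79 and 16.3 CPM. FBLN1, a matrix protein with the smallest p of the list, ran the other way, at 14.3 and 22.2 against 13.8 and 10.4 CPM (log2 fold change −0.59, SE 0.35). Of the 8 tested genes, 0 passed the edgeR test, 3 were highest in Bobcat339 library 2, 4 in control library 2 and 1 in Bobcat339 library 1. Of other matrix genes, named after their values were seen, COL1A2 had 83 to 115 counts per library, DCN 17 to 25, COL3A1 0 to 9 and LUM 0 or 1. Cumulus and granulosa markers summed to 102 and 124 CPM in the controls and 118 and 128 CPM with Bobcat339 over 19 genes, most of it VCAN, a matrix proteoglycan, at 57.8 and 82.0 against 74.0 and 74.3 CPM. SERPINE2, a protease inhibitor, and FST, the activin-binding follistatin, came next. SERPINE2 was at 15.5 and 18.5 against 20.2 and 25.1 CPM (log2 fold change 0.42, SE 0.33), and FST at 8.81 and 7.95 against 10.6 and 13.4 CPM (0.52, SE 0.35). TNFAIP6, a protein of the expanding cumulus matrix, had the smallest p of the list and was at 1.72 and 1.57 CPM in the controls and 0.477 and 0.291 CPM with Bobcat339 (log2 fold change −2.07, SE 0.71). Of the 10 tested, 0 passed the edgeR test. Of the hormone and receptor genes, named after their values were seen, AMH had 0 counts in all libraries, FSHR and INHA 0 or 1 and AMHR2 16 to 24. Others of the list, likewise named after their values were seen, were detected: STAR had 62 to 126 counts per library, CD44 50 to 66 and CYP11A1 8 to 14. The part of such cells in the VIM levels was not tested, and in bulk RNA fewer cells of a type cannot be told apart from less RNA per cell.

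Among the classes of the 9 genes, the keratins KRT8 and KRT18 had the lowest summed FPKM. This does not hold for keratins at large. Outside the set, KRT32 had a mean of 4.47 and KRT24 of 1.88 deposited FPKM, beside 1.30 for KRT18. KRT18, the type I chain, lies on chromosome 5 at 18217575 to 18222833, plus strand (ENSSSCG00000000253). Its levels were 6.45 and 2.43 CPM in the controls and 4.29 and 2.26 CPM with Bobcat339, from 90, 34, 63 and 31 counts. Library 1 was the higher in both groups, and the groups overlapped. KRT18 had a log2 fold change of −0.44 (95% interval −1.51 to 0.64, SE 0.51; adjusted p = 0.999 by edgeR), and it turned to 0.43 without control library 1. KRT8, the type II partner, lies 37359 bases away on the minus strand at 18170354 to 18180215 (ENSSSCG00000000252). It had 4 and 10 counts in the controls and 14 and 0 with Bobcat339, and the 0 allows up to 0.221 CPM before TMM. Only 0.13% of the tested genes had a lower mean CPM than KRT8. Its log2 fold change, −0.05 with a 95% interval of −2.28 to 2.18 (adjusted p = 0.999 by edgeR), rests on 14 counts in each group, and limma-voom put it at −1.38. KRT8 and KRT18 have processed copies in mammalian genomes, so reads could be split between copies by the counting.

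KRT19, the usual further type I keratin of simple epithelia, shares its locus with another row. In the RefSeq annotation of Sscrofa11.1 it covers 21115453 to 21119115 on chromosome 12, and the row named KRT14 spans 21024314 to 21119396 there. That row had 17 and 27 counts in the controls and 17 and 48 with Bobcat339. Which gene within that span these reads came from cannot be told from the counts.

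LMNB1 encodes lamin B1, a farnesylated lamin present in nearly all cell types. It lies on chromosome 2 at 129807247 to 129862208, plus strand (ENSSSCG00000014248). It was at 42.8 and 28.2 CPM in the controls and 37.4 and 25.6 CPM with Bobcat339, so library 1 was again the higher in both groups. Its log2 fold change was −0.17 (95% interval −0.88 to 0.53, SE 0.34; adjusted p = 0.999 by edgeR). LMNB2, for the other B-type lamin, also lies on chromosome 2, at 76125920 to 76146733, plus strand (ENSSSCG00000026784). Its levels were 30.8 and 14.1 CPM in the controls and 17.8 and 31.5 CPM with Bobcat339. Control library 1 and Bobcat339 library 2 formed the upper pair, and the log2 fold change of 0.13 (95% interval −0.70 to 0.96, SE 0.39; adjusted p = 0.999 by edgeR) averaged 2 libraries per group that were far apart. It was 0.80 without control library 1 and −0.30 without control library 2.

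LMNA, the gene of lamins A and C, which stiffen the nucleus of differentiated cells, was detected in all 4 libraries. It lies on chromosome 4 at 93897687 to 93949802, minus strand (ENSSSCG00000006496). Its levels were 17.2 and 26.5 CPM in the controls and 20.4 and 19.3 CPM with Bobcat339. Both Bobcat339 libraries lay between the 2 controls, and the highest library exceeded the lowest by 1.54 times, the smallest such span of the 8 genes with counts in every library. Its log2 fold change was −0.14 (95% interval −0.84 to 0.57, SE 0.34; adjusted p = 0.999 by edgeR).

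Of the summed lamin FPKM, LMNB1 took 65.6% and 60.3% in the controls and 67.9% and 51.9% with Bobcat339. LMNA took 11.7% and 25.2% in the controls and 16.5% and 17.4% with Bobcat339, and LMNB2 22.7% and 14.5% against 15.6% and 30.7%. LMNB1 was the leading lamin in all 4 libraries, and the deposited FPKM put LMNA ahead of LMNB2 in library 1 of Bobcat339 and library 2 of the control. With the table's length column the ratio of LMNA to LMNB2 was 0.338 and 1.14 in the controls and 0.693 and 0.371 with Bobcat339, so LMNB2 then led LMNA in both Bobcat339 libraries.

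**Figure D3:**
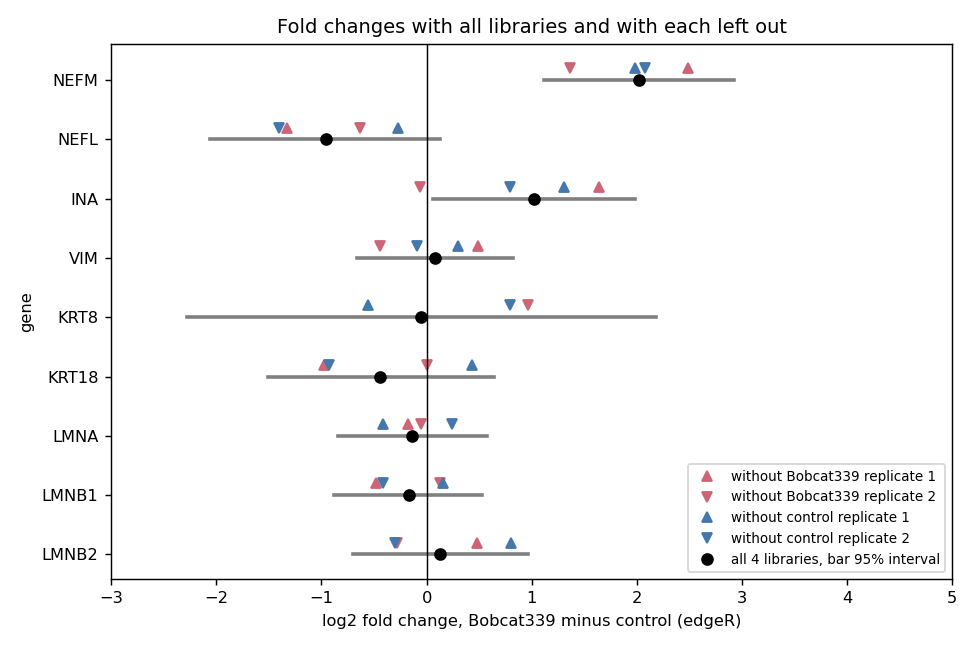
Log2 fold change of Bobcat339 minus control (x axis, edgeR) for the 9 genes (y axis), as a black point with its 95% interval for all 4 libraries and as triangles with 1 library left out. NEFM, whose sign could not turn because the set was chosen by it, stays between 1.36 and 2.49. NEFL lies between −1.40 and −0.27, INA falls to −0.06 without Bobcat339 library 2, and the keratin, vimentin and lamin triangles lie on both sides of 0.

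The 2 Bobcat339 libraries differed widely from each other in this set. On log2(CPM + 0.5), the gap between the Bobcat339 libraries was wider than that of 90% of all tested genes for 6 of the 9: INA (1.71), KRT8 (1.54), NEFM (1.15), VIM (0.97), LMNB2 and KRT18 (0.80 each). They did not go the same way. NEFM, INA, VIM and LMNB2 were higher in Bobcat339 library 2, and the other 5 genes in library 1. LMNA had the smallest gap, 0.08. Between the controls 2 of the 9 were past the 90% mark, KRT18 (1.24) and LMNB2 (1.10), and NEFM had a gap of 0.07, smaller than that of all but 7.89% of genes. Bobcat339 library 2 was the highest library for 4 of the 9 genes, beside 22.3% of all genes tested.

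**Figure D4:**
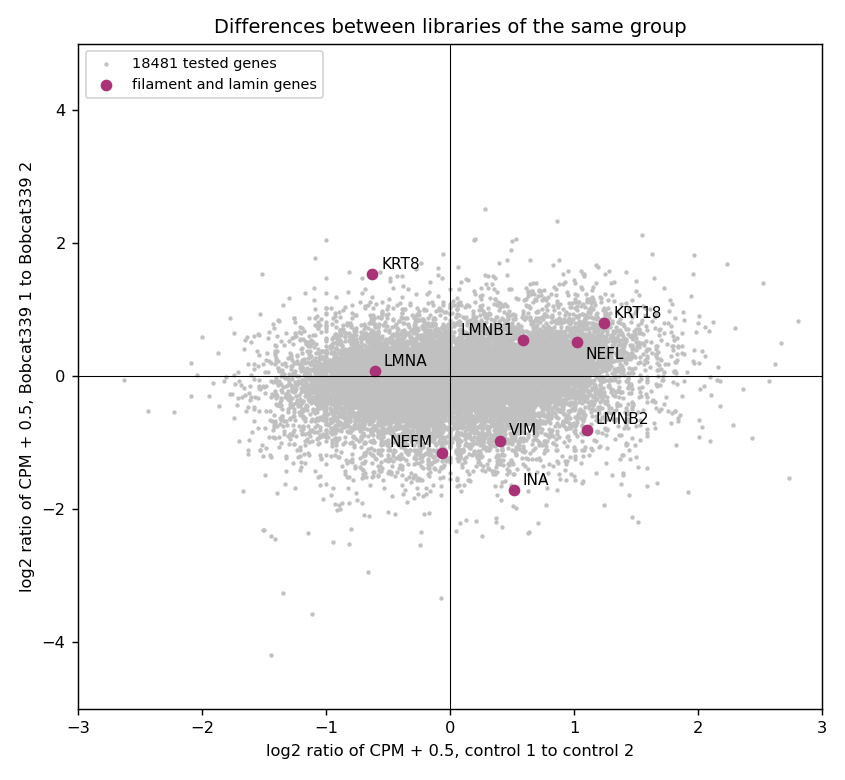
Log2 ratio of CPM + 0.5 between the 2 control libraries (x axis) and between the 2 Bobcat339 libraries (y axis) for 18481 tested genes (grey) and the 9 filament and lamin genes (purple, named). NEFM sits near 0 on the x axis and at −1.15 on the y axis, INA is at −1.71 on the y axis, and KRT18 is positive on both axes.

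Genes with the pattern of NEFM over the 4 libraries were sought among 8773 named genes with a mean of at least 5 CPM, by Pearson's r of log2(CPM + 0.5). With 4 points many genes come close: 139 (1.58%) reached an r of 0.95. The 5 nearest were GLMN (r = 0.9998), ADAMTSL4 (0.9996), NUDT3 (0.9995), TRPM7 (0.9994) and TMTC4 (0.9989). Their likeness is in shape only, since their log2 fold changes were 0.51, 0.53, 0.23, 0.11 and 0.38, against 2.02 for NEFM. The positive sign of these follows from picking genes by their likeness to NEFM and is not a finding. Within the set, r with NEFM was 0.81 for INA, 0.39 for VIM and LMNB2, −0.77 for NEFL and between −0.54 and −0.24 for LMNB1, KRT8, KRT18 and LMNA.

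Other intermediate filament genes were mostly near the detection limit. Of 59 names 51 matched a row, 8 of these had 0 counts in all libraries and 14 could be tested; 0 passed the edgeR test, 7 had a log2 fold change above 0 and 7 below, and the median was −0.14 beside −0.02 over all genes. NEFH, the heavy neurofilament subunit, was the most abundant at 69.6 and 41.2 CPM in the controls and 47.3 and 42.5 CPM with Bobcat339 (log2 fold change −0.30, SE 0.32). Per length NEFH was at 6.65 FPKM, beside 2.33 for NEFM and 0.557 for NEFL. KRT32, a hair keratin, was at 5.47 CPM (log2 fold change −0.56, SE 0.43). KRT24, a type I keratin, was at 8.53 and 0.859 CPM in the 2 controls and 2.25 and 7.43 CPM with Bobcat339 (log2 fold change 0.04, SE 0.70). KRT10, a further type I keratin named after its values were seen, had 84, 34, 59 and 27 counts in the library order in which KRT18 had 90, 34, 63 and 31. At an unadjusted p under 0.05 the list held 0 higher and 2 lower, beside 1.36% and 2.64% of all genes. These were KRT33A, a hair keratin, at 1.5 and 0.787 against 0.272 and 0.146 CPM, and KRT20, an intestinal keratin named after its values were seen, at 2.01 and 1.65 against 0.477 and 0.51 CPM, both from few counts.

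All 9 genes carried the Gene Ontology term intermediate filament in the table, as did 95 other rows. Of the 27 of those that could be tested, 0 passed the edgeR test, 10 were above 0 and 17 below, with a median of −0.12. Under an unadjusted p of 0.05 came 0 higher and 3 lower, beside 1.36% and 2.64% of all genes, and the lower ones include KRT33A and KRT20.

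Lamin processing enzymes and partners of the lamina were close to 0 in fold change. Mean levels of the tested genes ran from 2.11 CPM for LEMD2, named after its values were seen, to 207 CPM for SUN2. Of 25 tested genes 0 passed the edgeR test, with 0 at an unadjusted p under 0.05, 12 above 0 and 13 below, and a median of 0.00. SUN2, which links the lamina to the cytoskeleton through the nuclear envelope, was at 208 and 210 CPM in the controls and 206 in both Bobcat339 libraries. The log2 fold change of BANF1, which tethers DNA to the envelope, was 0.05 (SE 0.26), and that of LEMD3, an inner membrane protein, −0.05 (SE 0.26). CBX5, the heterochromatin protein bound by the lamin B receptor, had the smallest p of the list at 0.23 (SE 0.27), with 121 and 132 CPM in the controls and 140 and 157 CPM with Bobcat339. Kinases and phosphatases that act on lamins at mitosis had a median of −0.01 over 12 tested genes, with 0 passing and 0 at an unadjusted p under 0.05. In this list CCNB1, the mitotic cyclin, was at 1228 and 1155 CPM in the controls and 920 and 956 CPM with Bobcat339 (log2 fold change −0.35, SE 0.22). The phosphatase subunit PPP2CA was at 0.08 (SE 0.26), the kinase PLK1 at −0.17 (SE 0.24) and the kinase VRK1, which phosphorylates BANF1, at 0.47 (SE 0.29).

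Linkers of intermediate filaments and desmosome genes, 17 of them tested, had 0 passing, 9 above 0 and 8 below, and a median of 0.06. Under an unadjusted p of 0.05 came 2 higher and 1 lower, beside 1.36% and 2.64% of all genes. The lower gene was PKP2, a desmosomal plaque protein, with 18 and 7.52 CPM in the controls and 5.25 and 6.56 CPM with Bobcat339 (log2 fold change −1.11, SE 0.42). The higher genes were PERP, a desmosomal membrane protein, at 38.8 and 18.1 against 40.9 and 63.3 CPM, and TRIM29, at 0.86 and 1.07 against 1.77 and 3.28 CPM, both named after their values were seen. The most abundant were the kinase CSNK1A1 (log2 fold change 0.06, SE 0.25), the dynein regulator NDEL1 (−0.06, SE 0.26) and JUP, plakoglobin (0.23, SE 0.34). PLEC, the plectin gene, whose product cross-links several classes of filament and which was named after its values were seen, had a mean of 0.522 CPM and was not tested.

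Neuron-enriched genes were examined beside the type IV filaments. Of 16 tested, 0 passed the edgeR test, 8 were above 0 and 8 below, and the median was 0.03. Under an unadjusted p of 0.05 came 3 higher and 0 lower, beside 1.36% and 2.64% of all genes. TUBB3, the neuronal beta-tubulin, was at 3.80 and 5.08 CPM in the controls and 5.86 and 12.2 CPM with Bobcat339 (log2 fold change 1.02, SE 0.42). ELAVL3, a neuronal RNA-binding protein, was at 6.38 and 5.66 against 11.8 and 10.1 CPM, and STMN3, a stathmin, at 4.37 and 3.01 against 6.81 and 6.99 CPM, both named after their values were seen. Both Bobcat339 libraries lay above both controls for 4 of the 16 and below them for 2, beside 13.3% and 16.0% of all genes. The 2 most abundant of the list did not follow TUBB3. MAPT, the tau gene, had 533 and 938 CPM in the controls and 639 and 781 CPM with Bobcat339. UCHL1, a deubiquitinase abundant in neurons and oocytes, had a log2 fold change of −0.30 (SE 0.27). THY1, next in abundance, was like TUBB3 highest in Bobcat339 library 2, at 71.5 CPM (log2 fold change 0.30, SE 0.32). CHGA, named after its values were seen, was at 4.01 and 4.94 CPM in the controls and 2.38 and 3.06 CPM with Bobcat339. Of the 16 genes, 7 were highest in Bobcat339 library 2 and 7 in control library 2. The neuronal markers RBFOX3 and SYP, also named after their values were seen, were below 1 CPM in every library and were not tested. Others of the list, likewise named after their values were seen, were detected. SYT1 was at 27.8 to 46.0 CPM, DCX at 2.22 to 3.65 CPM, and MAP2 at 5.45 and 6.23 CPM in the controls against 7.83 and 7.94 CPM with Bobcat339.

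**Figure D5:**
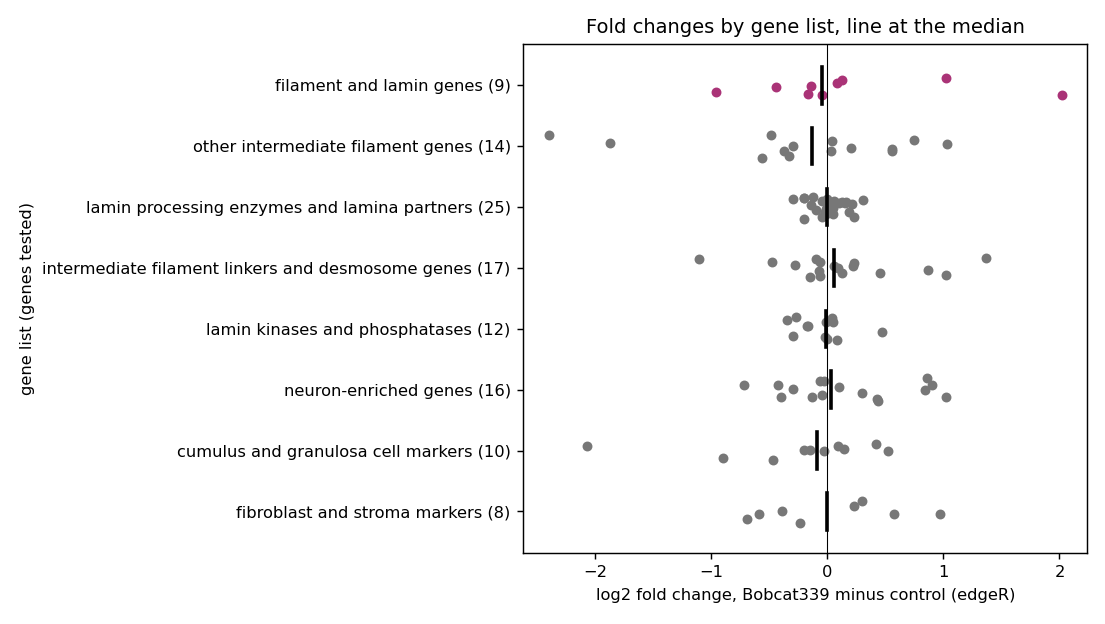
Log2 fold change of Bobcat339 minus control (x axis, edgeR) of every tested gene in the filament and lamin set and in 7 related lists (y axis, number of genes tested in brackets), with a black line at each median. The medians lie between −0.14 and 0.06, and NEFM, at 2.02, is the gene farthest to the right.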

How the data were processed

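Total RNA (TRIzol) went into Smart-seq2 libraries, an unstranded full-length method, per the labels' protocols. The authors deposited raw counts per gene and FPKM for each library. Per the submitters' processing notes, HISAT2 2.0.5, Trimmomatic, DESeq2 1.16.1 and HTSeq are named, without their roles, with build Sscrofa10.2. However, 98.8% of 14155 symbols overlap their RefSeq gene on Sscrofa11.1, so that build is named. The deposited FPKM equal count over library total and a fixed length per gene in all 30007 rows with counts (within 1%), which equals the table's length column in 62% of them. Whether counting used strand is not stated, so antisense reads cannot be told apart; no member overlaps another row that has counts. Measurement columns belonging to no sample number 0.

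The 9 genes were matched by the name column. Bobcat339 and control were compared with edgeR 4.0.16 in R 4.3.3: filterByExpr (minimum count 10), TMM, quasi-likelihood test, Benjamini-Hochberg adjustment over 18481 rows. The fit was tested on simulated data. Intervals come from the log2 fold change and its F statistic. Alternatives used DESeq2 1.42.0, limma-voom (limma 3.58.1), other scalings, filters and left-out libraries. Lists were matched by table name, Ensembl identifier or NCBI gene number. Named from each list were passing genes or, with none, the 3 most abundant tested and the 1 with the smallest p, besides the 5 genes most like NEFM and the 9 themselves; others are marked in the text. Members and lists were chosen with earlier results of these data known.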

Additional observations from a re-analysis of the deposited data

How the results depend on the processing

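With edgeR the number of genes called among the 9 was 0 with DESeq2 size factors, no scaling, no filter, the 5 CPM filter and without XLOC loci, and DESeq2 and limma-voom also gave 0. Over all genes DESeq2 called 5 and DESeq2 with the replicate block 6, of which 0 were among the 9 (NEFM adjusted p = 0.163). With the replicate number as a block, edgeR called 44 genes (0.238%), 1 of the 9 among them: NEFM (log2 fold change 1.92, edgeR adjusted p = 0.000814). Same-numbered libraries share only a number: their deviations from the group means correlated at 0.159 across genes, with 2 pairs, so the block was not adopted. With a library left out, the calls ranged from 0 to 586 over all genes and from 0 to 2 among the 9. The calls were 586 and 494 without control library 1 and 2 (NEFM in both, INA in the first), the lone control being taken to vary like the Bobcat339 pair, and 0 without either Bobcat339 library. NEFM ranged from 1.36 to 2.49 over 13 alternatives and NEFL from −1.40 to −0.27 over 12, each with its sign kept. For NEFM the kept sign follows from the choice of the set. Both Bobcat339 libraries lay above both controls, so leaving out 1 library could not turn it. With 1 library left out, INA ranged from −0.06 to 1.64, VIM from −0.44 to 0.49, KRT8 from −0.56 to 0.96, KRT18 from −0.98 to 0.43, LMNA from −0.41 to 0.24, LMNB1 from −0.48 to 0.16 and LMNB2 from −0.30 to 0.80. KRT8 was −1.38 with limma-voom and −1.31 with the replicate block in DESeq2, against −0.05. Signs turned without Bobcat339 library 2 for INA (−0.06), VIM (−0.44), KRT8 (0.96), KRT18 (0.00), LMNB1 (0.13) and LMNB2 (−0.28), without control library 1 for KRT18 (0.43) and LMNB1 (0.16), and without control library 2 for VIM (−0.09), KRT8 (0.79), LMNA (0.24) and LMNB2 (−0.30). The cause was not tested. KRT8, KRT18 and NEFL did not pass the filter at 5 CPM, nor KRT8 without Bobcat339 library 1. With the table's length column the mean FPKM of NEFL (0.205), LMNA (0.762), LMNB1 (5.79) and LMNB2 (1.42) moved by more than their SD, and the mean lamin share fell to 39.9% of the summed FPKM. Depth limits KRT8 most, at 0 to 14 counts.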
